A study of Mus musculus with 8 samples.

Results

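Retinoic acid synthesis and response were examined through 10 genes in cultured mouse neurons lacking the kinase NUAK1. They are the retinol dehydrogenase Rdh10, the retinaldehyde dehydrogenases Aldh1a1, Aldh1a2 and Aldh1a3, the hydroxylase Cyp26b1, the carriers Crabp1 and Crabp2, and the receptors Rara, Rarb and Rxrg. Each was found by its symbol as 1 row of a table of 32726 Ensembl gene rows. Aldh1a3 was listed because it was lower in the knockout in these same libraries, so its genotype difference is described here without a test. The other 9 were listed for their place in the pathway.

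Poly-A RNA was sequenced from 4 Nuak1 knockout (KO) and 4 wild-type (WT) libraries. They are called KO1 to KO4 and WT1 to WT4 here, by the replicate number each label carries, and the methods give 4 animals per condition. Neurons were dissociated from E15.5 embryos, kept for 5 days in serum-free medium and collected while axons were growing. The labels name no treatment. The knockout comes from the allele Nuak1 tm1a(KOMP)Wtsi and is constitutive, so every cell type in the dish carried it, and animals of both genotypes were kept on a C57Bl/6JRj background. The tissue label of all 8 libraries reads cortex or hippocampus, whereas the design text speaks of glutamatergic cortical neurons. KO1, KO4, WT1 and WT3 carry the lane label A and the others the lane label B. Strain labels, which the sources do not explain, are BJ for KO1, KO2 and KO3, BK for KO4, WT2 and WT4, BO for WT1 and BQ for WT3. The label and the genotype are therefore largely confounded.

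Retinoic acid is made from vitamin A in consecutive oxidations. Retinol is first turned into retinaldehyde, reversibly, mainly by RDH10 in the embryo, and retinaldehyde is then turned irreversibly into retinoic acid by ALDH1A1, ALDH1A2 or ALDH1A3. CRABP proteins carry retinoic acid within the cell, CYP26 enzymes remove it, and RAR/RXR heterodimers on DNA read it out. In the developing forebrain the pathway is best known for the meninges, where Aldh1a2 is made, and for the lateral ganglionic eminence, the source of striatal neurons, where Aldh1a3 is made. Cultured neurons meet retinoids from their medium as well, since the B27 supplement is sold with and without a vitamin A ester. The sources used here do not say which form was used.

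RAR/RXR heterodimers bind pairs of 6-base sites, classically with 5 bases between them. Such a pair is shown here because it lies in the promoter of Rarb, the member that is itself a textbook target of retinoic acid. The search used the consensus site AGGTCA with the variant AGTTCA, the variant GGTTCA and the variant GGGTCA, in any combination, on both strands, with a spacer of 5 bases and no overlap between the 2 sites. Windows ran from 250 bases before to 50 bases after a RefSeq transcript start in GRCm38.p6. A pair was present in 32 of 32851 windows (0.0974%), belonging to 31 of 27025 genes. The Rarb pair is made of the searched variants GGTTCA and AGTTCA. The share over all windows is therefore a description and no measure of how unexpected the Rarb pair is. Windows were at hand for 7 of the 10 members, which have 12 between them, and 1 of these 12 held a pair. Among all listed retinoid and aldehyde dehydrogenase genes with a window the pair was found in Rarb and Cyp26a1. In both sequences below, the 250 bases before the start are given 5′ to 3′ on the gene's strand, from RefSeq, with the pair and its spacer in capitals.
Rarb, chr14:16575477-16575726, minus strand: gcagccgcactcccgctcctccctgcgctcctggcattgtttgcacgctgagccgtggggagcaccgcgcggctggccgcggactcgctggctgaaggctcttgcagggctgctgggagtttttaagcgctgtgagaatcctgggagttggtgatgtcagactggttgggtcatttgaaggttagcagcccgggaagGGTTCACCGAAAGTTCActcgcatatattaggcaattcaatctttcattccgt
Cyp26a1, chr19:37697558-37697807, plus strand: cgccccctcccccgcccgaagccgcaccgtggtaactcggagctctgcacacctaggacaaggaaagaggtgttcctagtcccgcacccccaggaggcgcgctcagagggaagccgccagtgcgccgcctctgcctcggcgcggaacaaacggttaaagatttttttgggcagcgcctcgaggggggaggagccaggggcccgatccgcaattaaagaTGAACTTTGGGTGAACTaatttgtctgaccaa
In Rarb the pair spanned bases 53 to 37 before the start and ran in the gene's direction. In Cyp26a1 it spanned bases 32 to 16 before the start and ran against it, reading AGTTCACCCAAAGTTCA on the other strand. A match of letters is a description of the sequence and not evidence of binding.

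Across the 8 libraries total counts ranged from 31247078 to 67155004. Nuak1 itself was 2.37 ± 0.317 counts-per-million (CPM, SD, n = 4) in KO and 69.5 ± 13.2 CPM (SD, n = 4) in WT. Genotype was tested for 16272 genes with edgeR's quasi-likelihood test and 1 surrogate variable, an estimated term that separated KO1 and WT1 (-0.558 and -0.621) from the other 6 libraries (0.048 to 0.392). P-values were adjusted by the Benjamini-Hochberg method over all of them. At an adjusted p under 0.05, 8 genes were called, 0.0492% of those tested, with 0.0369% lower and 0.0123% higher in KO. Of the 10 members 8 passed the filter on low counts, and 0 of the 7 tested members other than Aldh1a3 were called. Limma-voom also called 0 of them, and DESeq2 called 0 of Rdh10, Cyp26b1 and Rara, the members for which it gave an adjusted p. Of the 7 tested members 0 had an edgeR p under 0.05 before adjustment, against 10.6% of all genes (5.75% lower and 4.87% higher in KO). Because these are bulk samples, fewer cells making a transcript and less transcript per cell cannot be told apart.

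**Figure D1:**
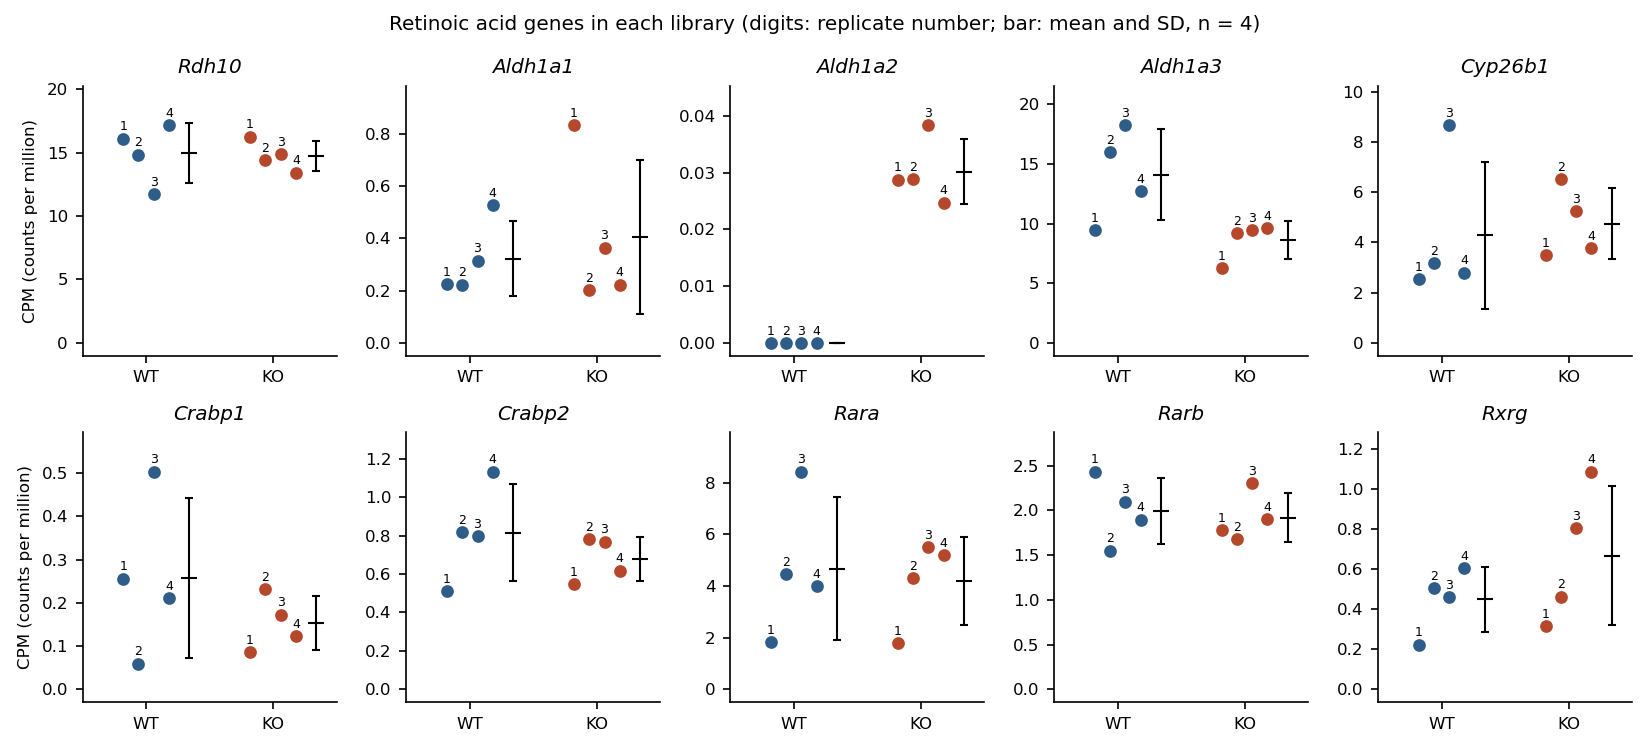
Counts-per-million (CPM; vertical axis, linear, a separate scale for each gene) of the 10 members in the 4 WT libraries (blue) and 4 KO libraries (red); digits give the replicate number, and the bar at the right of each group is the mean and SD. KO1 is the lowest Aldh1a3 library, WT3 is the highest for Cyp26b1, and Aldh1a2 rests on 0 to 2 counts per library.

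Aldh1a3 (ENSMUSG00000015134, GRCm38 chromosome 7, 66390892 to 66427477) had the most abundant transcript of the retinaldehyde dehydrogenases in these cultures. Its counts were 217, 319, 492 and 388 in KO1 to KO4 and 295, 1075, 870 and 484 in WT1 to WT4. Scaled to library size these were 6.24, 9.22, 9.44 and 9.59 CPM in KO. In WT they were 9.44, 16.0, 18.3 and 12.7 CPM. KO2, KO3 and KO4 lay close together, KO1 lay below them, and the WT libraries were more spread out. The groups met at their edges: 3 KO libraries were below the lowest WT library, WT1, and KO4 was slightly above it. Groups without overlap occurred for 2.4% of all genes tested, 0.86% with KO below WT and 1.54% with KO above. Means were 8.62 ± 1.60 CPM (SD, n = 4) in KO and 14.1 ± 3.85 CPM (SD, n = 4) in WT, and the KO mean was 38.9% lower.

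The fitted log2 fold change of Aldh1a3 was -0.71 (SE 0.10), a fold of 0.611. Since this contrast was the reason for listing the gene, the value is a description. KO1 and WT1, the libraries set apart by the surrogate variable, were also the lowest of their genotypes for Aldh1a3. Between these 2 the KO level was 33.9% lower, and among the other 6 libraries it was 39.9% lower, with KO at 9.22 to 9.59 CPM and WT at 12.7 to 18.3 CPM. Values in subsets of libraries come from the contrast that led to the listing, so they describe it and do not test it. Each lane holds 2 libraries of each genotype. Within lane A the means were 7.91 CPM in KO and 13.8 CPM in WT, and within lane B 9.33 and 14.4 CPM. In the strain label that both genotypes share, BK, the KO library held 9.59 CPM and the 2 WT libraries averaged 14.4 CPM.

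**Figure D2:**
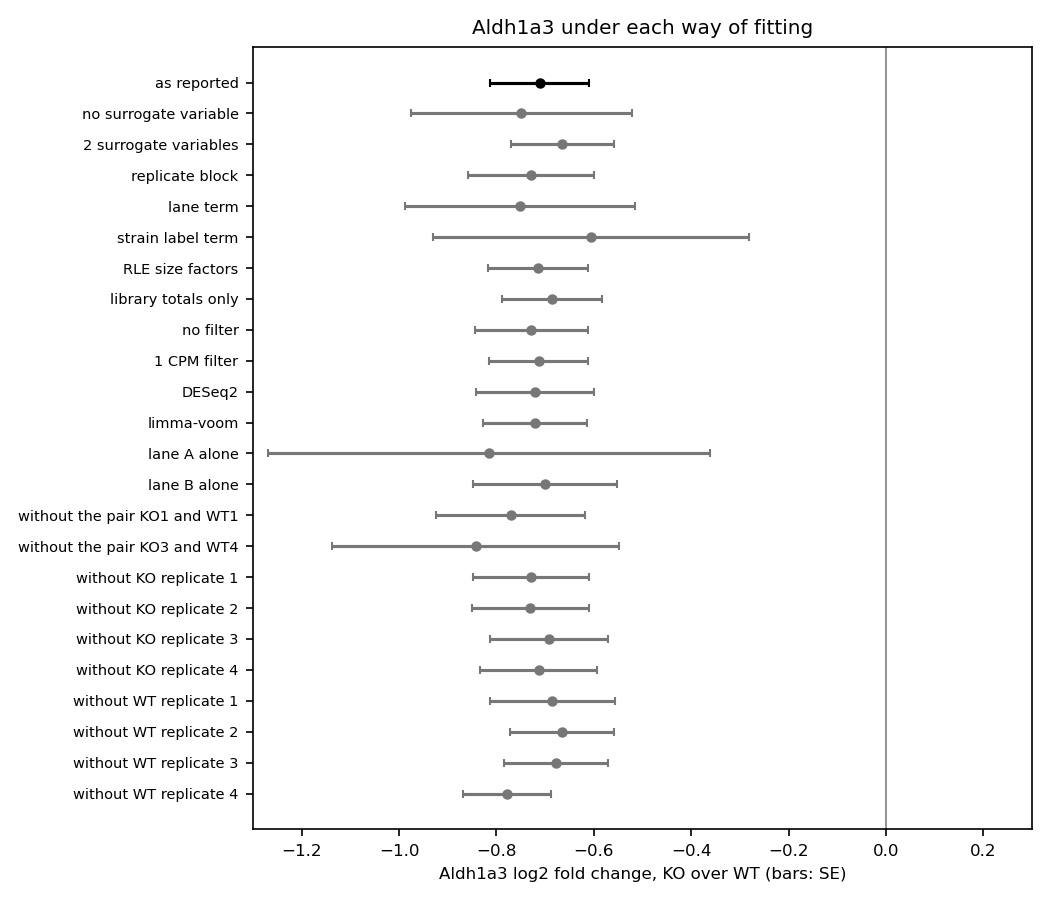
Log2 fold change of Aldh1a3, KO over WT (horizontal axis, bars are SE), as reported (black, top) and under each of 23 other ways of fitting the counts (grey). The estimates lie between -0.84 and -0.61, and the widest bars belong to lane A alone and to the term for the strain label.

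The other retinaldehyde dehydrogenases were scarce. Aldh1a1 (ENSMUSG00000053279, chromosome 19), which marks dopamine neurons and many stem cells, held 29, 7, 19 and 9 counts in the KO libraries, in replicate order. The WT libraries held 7, 15, 15 and 20 counts. KO1 was the highest library of all 8, and the groups overlapped. Means were 0.406 ± 0.294 CPM in KO against 0.322 ± 0.143 CPM in WT (SD, n = 4 each). Its log2 fold change was 0.17 (SE 0.47), with a 95% interval from -0.87 to 1.21 and an adjusted p of 0.922 by edgeR. A difference of up to 2.31-fold was therefore not excluded by these libraries. Of its 50-base transcript windows 7.54% are shared with its copy Aldh1a7, so its count is uncertain.

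Aldh1a2 (ENSMUSG00000013584, chromosome 9), the enzyme of the meninges and of the early embryo, was read 1, 1, 2 and 1 times in KO and 0 times in each WT library. All 8 values are at or under 3 counts, the limit that a count of 0 allows, so no fold is given. Aldh1a7 held 3 to 16 counts and did not pass the filter. Aldh8a1, which acts on 9-cis-retinaldehyde, was 0.297 ± 0.138 CPM in KO against 0.392 ± 0.0978 CPM in WT (SD, n = 4 each; log2 fold change -0.39, SE 0.37, edgeR adjusted p = 0.731).

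Aldh1a3 supplied most of the retinaldehyde dehydrogenase counts in either genotype. Of the summed counts of Aldh1a1, Aldh1a2 and Aldh1a3 it made up 95.9% to 98.6% in 7 libraries. In KO1 it made up 87.9% (95% Wilson interval 83.2 to 91.4%, for 217 of 247 counts), the library with the least Aldh1a3 and the most Aldh1a1. These shares compare counts and not proteins, and the interval covers counting error only. They are not scaled to exon length, which is 4.615 kb for Aldh1a3, 2.053 kb for Aldh1a1 and 2.264 kb for Aldh1a2. Per kilobase of exon, KO1 held 1.35 CPM of Aldh1a3 and 0.406 CPM of Aldh1a1.

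Rdh10 (ENSMUSG00000025921, chromosome 1, 16105882 to 16132550), which makes the retinaldehyde that ALDH1A enzymes use, was steady. It was 16.3, 14.4, 14.9 and 13.4 CPM in KO1 to KO4. In WT1 to WT4 it was 16.1, 14.8, 11.7 and 17.2 CPM. All KO libraries fell within the WT range. The log2 fold change was -0.06 (SE 0.10), with a 95% interval from -0.29 to 0.17 and an edgeR adjusted p of 0.857, which leaves room for folds from 0.815 to 1.12. The step before the one catalysed by ALDH1A3 showed no called genotype difference, within these limits.

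Of 16 listed genes of retinol and retinaldehyde interconversion 14 had a row and 10 were tested; 7 estimates were higher and 3 lower in KO, with a median log2 fold change of 0.13 beside 0.01 for all genes tested, and 0 were called. Rdh11, which mainly reduces retinaldehyde back to retinol, was the most abundant of them. It was 151, 162, 151 and 157 CPM in KO against 236, 198, 187 and 167 CPM in WT, and the groups did not overlap, as in 0.86% of all genes for KO below WT. Means were 155 ± 5.43 CPM in KO against 197 ± 29.0 CPM in WT (SD, n = 4 each). Its log2 fold change of -0.38 (SE 0.09) missed the threshold with an edgeR adjusted p of 0.271, while DESeq2 gave -0.39 with an adjusted p of 0.0258.

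The other abundant interconversion genes were close between genotypes. Adh5, a ubiquitous alcohol dehydrogenase whose main substrate is a glutathione adduct of formaldehyde, was 107 ± 9.38 CPM in KO against 96.9 ± 16.7 CPM in WT (SD, n = 4 each; edgeR adjusted p = 0.568). Rdh13, a mitochondrial enzyme, was 45.6 ± 2.48 CPM in KO against 43.4 ± 4.02 CPM in WT, and Rdh14 was 16.9 ± 3.89 and 16.8 ± 2.13 CPM (SD, n = 4 each; edgeR adjusted p = 0.837 and 0.824).

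Of 9 genes of retinoid transport and storage 3 were tested and 0 called. Rlbp1, which encodes the retinaldehyde-binding protein CRALBP, was 64.6 ± 5.35 CPM in KO against 60.4 ± 7.10 CPM in WT (SD, n = 4 each; log2 fold change 0.07, SE 0.07, edgeR adjusted p = 0.761). Rbp4, the plasma retinol carrier, was 1.05 ± 0.246 CPM in KO against 1.17 ± 0.750 CPM in WT (SD, n = 4 each; edgeR adjusted p = 0.974). Lrat, which esterifies retinol for storage, did not pass the filter, with means of 0.159 CPM in KO and 0.283 CPM in WT.

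Cyp26b1 (ENSMUSG00000063415, chromosome 6, 84571414 to 84593908), the retinoic acid hydroxylase of the brain, varied widely between libraries. It was 3.48, 6.50, 5.24 and 3.76 CPM in KO1 to KO4. In WT1 to WT4 it was 2.53, 3.17, 8.66 and 2.79 CPM. All 4 KO libraries were above WT1, WT2 and WT4 and below WT3. Means were 4.74 ± 1.40 CPM in KO against 4.29 ± 2.93 CPM in WT (SD, n = 4 each), and the log2 fold change was 0.22 (SE 0.33, 95% interval -0.53 to 0.97, edgeR adjusted p = 0.839).

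The direction for Cyp26b1 differed between the lanes, and its size depended on WT3. In lane A, which holds WT3, the means were 3.62 CPM in KO and 5.60 CPM in WT, with a log2 fold change of -0.63 (SE 0.62). In lane B they were 5.87 and 2.98 CPM, with a log2 fold change of 0.89 (SE 0.19) and an edgeR adjusted p of 0.0560. Without WT3 the log2 fold change over all remaining libraries was 0.65 (SE 0.20, edgeR adjusted p = 0.160). The surrogate variable was left out of the fits within a lane and kept in the fit without WT3. The difference between the lanes was not tested.

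Transcripts of the other hydroxylases were near the limit of detection or low. Cyp26a1 held 7, 0, 5 and 3 counts in KO and 5, 0, 3 and 1 counts in WT, and Cyp26c1 was at or under 3 counts in every library. Cyp2s1, a cytochrome P450 that can also oxidise retinoic acid, was 1.13 ± 0.217 CPM in KO against 1.36 ± 0.469 CPM in WT (SD, n = 4 each; log2 fold change -0.28, SE 0.27, edgeR adjusted p = 0.735).

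Both cellular retinoic acid binding proteins were low. Crabp2 (ENSMUSG00000004885, chromosome 3), which passes retinoic acid on to the receptors, was 0.546, 0.780, 0.767 and 0.618 CPM in KO1 to KO4, from 19, 27, 40 and 25 counts. In WT1 to WT4 it was 0.512, 0.819, 0.797 and 1.13 CPM, from 16, 55, 38 and 43 counts. The KO values lay within the WT range, with KO1 and WT1 the lowest of all 8. The log2 fold change was -0.27 (SE 0.24, 95% interval -0.80 to 0.26, edgeR adjusted p = 0.710).

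Crabp1 (ENSMUSG00000032291, chromosome 9), which holds retinoic acid in the cytosol, did not pass the filter. It held 3, 8, 9 and 5 counts in KO and 8, 4, 24 and 8 counts in WT, so WT3 was its highest library. Fabp5, which can carry retinoic acid to another nuclear receptor and binds fatty acids in general, was far more abundant, at 115 ± 8.74 CPM in KO against 108 ± 7.53 CPM in WT (SD, n = 4 each; log2 fold change 0.05, SE 0.08, edgeR adjusted p = 0.831).

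All 6 retinoic acid receptor genes were tested. Estimates were higher in KO for 4 and lower for 2, their median log2 fold change was 0.06, and 0 were called. Rara (ENSMUSG00000037992, chromosome 11, 98927800 to 98974942), the broadly expressed receptor, was 1.78, 4.31, 5.51 and 5.19 CPM in KO1 to KO4. In WT1 to WT4 it was 1.82, 4.47, 8.43 and 4.0 CPM. KO1 and WT1 were low by nearly the same amount, and the rest overlapped. The log2 fold change was -0.07 (SE 0.15, 95% interval -0.40 to 0.26, edgeR adjusted p = 0.894).

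Rarb (ENSMUSG00000017491, chromosome 14, 16430839 to 17082331) encodes the receptor with the paired sites in its promoter shown above and rises with retinoic acid in many cell types. It was 1.78, 1.68, 2.30 and 1.90 CPM in KO1 to KO4. In WT1 to WT4 it was 2.43, 1.55, 2.10 and 1.90 CPM. All KO libraries lay within the WT range, unlike those of Aldh1a3. The log2 fold change was -0.08 (SE 0.19), and its 95% interval from -0.50 to 0.34 corresponds to folds from 0.710 to 1.27 (edgeR adjusted p = 0.912). Changes within that interval were not excluded here.

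Rxrg (ENSMUSG00000015843, chromosome 1, 167598362 to 167639623), a receptor subunit typical of striatal neurons, had the largest estimate in size among the tested members other than Aldh1a3. It held 11, 16, 42 and 44 counts in KO1 to KO4, or 0.316, 0.463, 0.806 and 1.09 CPM. In WT1 to WT4 it held 7, 34, 22 and 23 counts, or 0.224, 0.506, 0.461 and 0.605 CPM. KO3 and KO4 were above every WT library and KO1 and KO2 were not. The log2 fold change of 0.57 (SE 0.29, 95% interval -0.08 to 1.23) did not pass the threshold (unadjusted p = 0.0803, adjusted p = 0.518, edgeR). It was 1.0 (SE 0.78) in lane A alone and 0.18 (SE 0.38) in lane B alone, both fitted without a surrogate variable.

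The receptors outside the 10 genes were more abundant. Rxrb was 49.1 ± 17.0 CPM in KO against 47.3 ± 18.8 CPM in WT (log2 fold change 0.09, SE 0.06, edgeR adjusted p = 0.591, SD, n = 4 each). Rxra was 9.78 ± 3.27 and 9.29 ± 3.81 CPM, and Rarg 5.53 ± 1.28 and 5.60 ± 1.96 CPM (SD, n = 4 each; edgeR adjusted p = 0.716 and 0.964).

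KO1 and WT1 had the lowest levels of most receptors. These 2 libraries were below all other 6 for 5 of the 6 receptors, Rara, Rarg, Rxra, Rxrb and Rxrg, against 28.8% of all genes tested. Their mean was 0.339 times that of the other 6 for Rara (1.80 against 5.32 CPM), 0.397 times for Rxrb, 0.412 times for Rxrg, 0.419 times for Rxra and 0.529 times for Rarg. Rarb was the exception, at 1.11 times. The 2 libraries come from both genotypes and share lane A with KO4 and WT3, and what sets them apart was not tested.

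**Figure D3:**
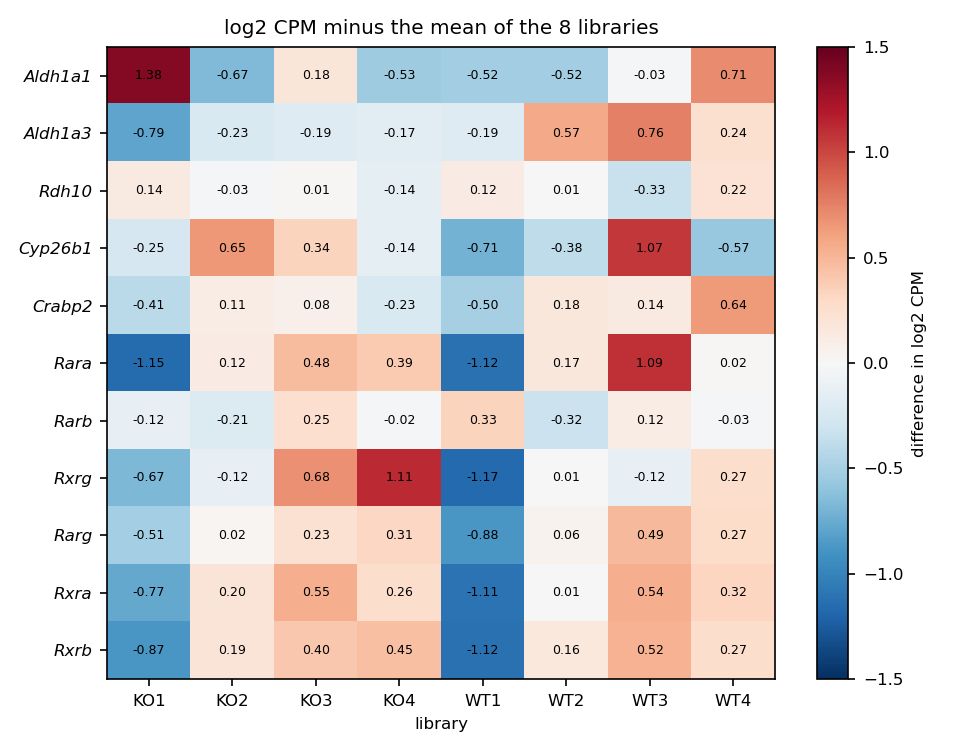
Log2 CPM of the 8 tested members and the other 3 receptors (rows) in each library (columns), minus the mean of the 8 libraries; red is above that mean and blue below, with the difference printed in each cell. KO1 and WT1 are blue for every receptor except Rarb, where KO1 is -0.12 and WT1 0.33. For Aldh1a3 all KO libraries and WT1 are below the mean.

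Coregulators of the receptors were measured precisely. All 9 were tested, with 8 estimates lower and 1 higher in KO, a median log2 fold change of -0.04 and 0 calls. The corepressor Ncor1 was 289 ± 6.37 CPM in KO against 291 ± 16.6 CPM in WT (SD, n = 4 each; edgeR adjusted p = 0.824). The coactivators Ncoa1, Ncoa2 and Ep300 had log2 fold changes of -0.01, -0.03 and -0.06. Nrip1, a ligand-dependent corepressor that retinoic acid itself induces, was 104 ± 15.1 CPM in KO against 126 ± 13.6 CPM in WT (SD, n = 4 each). Its log2 fold change was -0.33 (SE 0.11, unadjusted p = 0.0138, adjusted p = 0.369, edgeR), and the groups overlapped.

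Of 17 textbook retinoic acid target genes 14 had a row and 8 were tested; 5 estimates were higher and 3 lower in KO, with a median log2 fold change of 0.06 and 0 calls. The list holds Rarb, Cyp26b1, Crabp2 and Nrip1, described above. Dhrs3, which reduces retinaldehyde and is induced by retinoic acid, was 3.10 ± 0.976 CPM in KO against 2.81 ± 0.591 CPM in WT (SD, n = 4 each; edgeR adjusted p = 0.846). The homeobox genes Meis1 and Meis2 had log2 fold changes of 0.13 (SE 0.13) and 0.05 (SE 0.18). The targets Stra6, Lrat and Tgm2 did not pass the filter, and Hoxa4 and Hoxb5 were at or under 3 counts in every library.

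Across the retinoid lists together 37 genes were tested, 19 with a higher and 18 with a lower estimate in KO. Aldh1a3, listed for its lower level, is among the 18 and enters the median. Their median log2 fold change was 0.00, beside 0.01 for all genes tested. Aldh1a3 is set aside in what follows, since it was listed for this contrast. Of the others, Rdh11 and Nrip1 had an unadjusted edgeR p under 0.05 with a lower level in KO, as did 5.75% of all genes. No listed gene had one with a higher level.

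**Figure D4:**
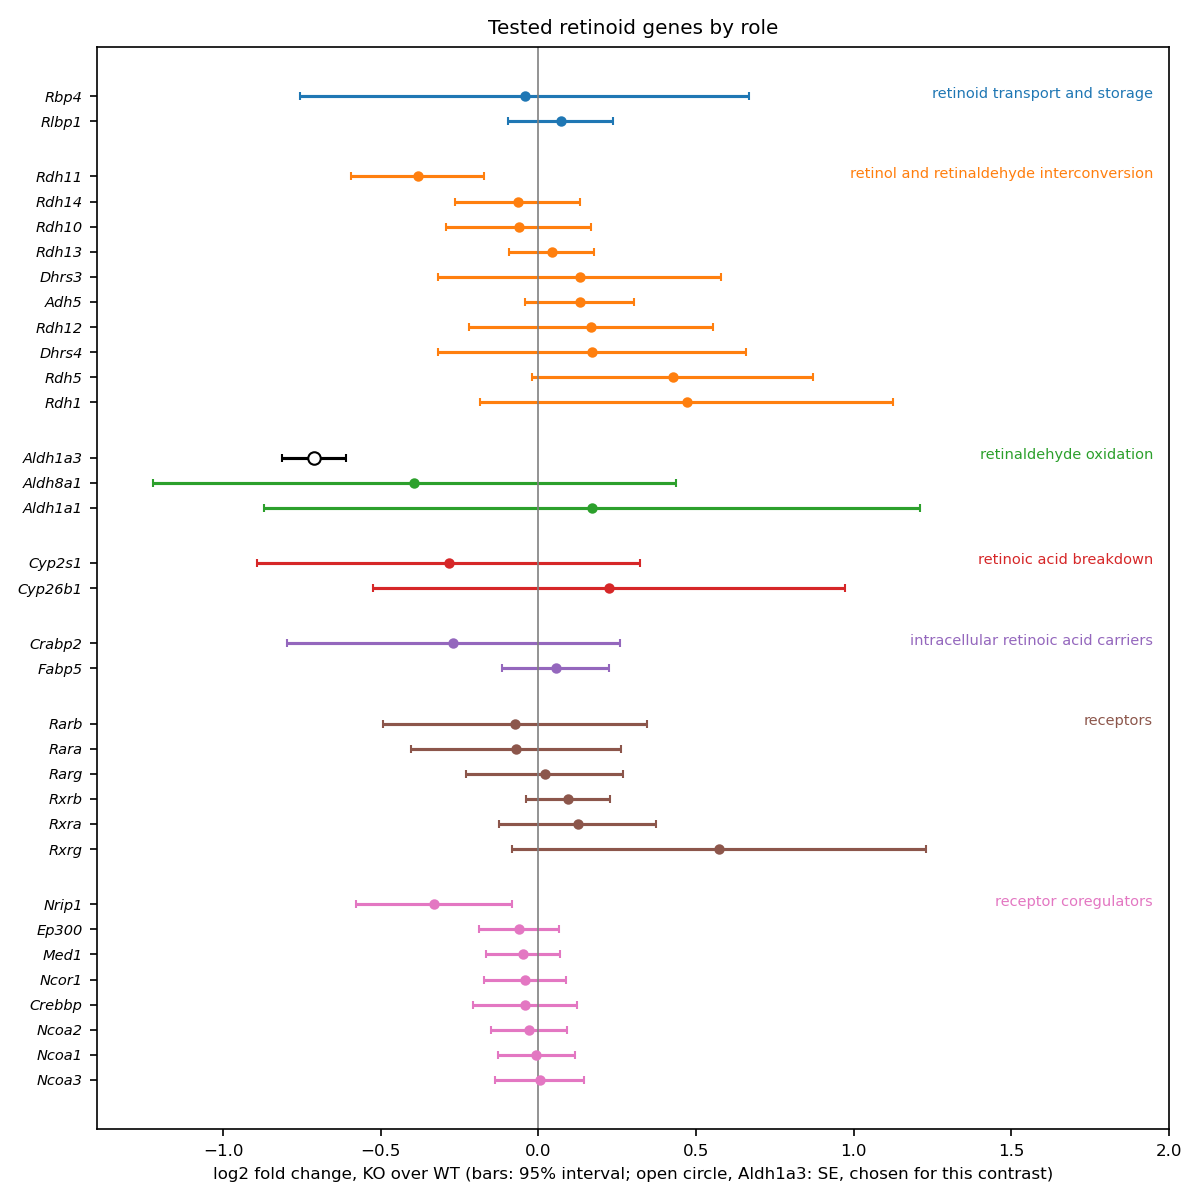
Log2 fold change, KO over WT (horizontal axis), of tested genes from 7 retinoid lists, grouped and coloured by role; bars are 95% intervals, and for Aldh1a3 (open circle), which was chosen for this contrast, the bar is the SE. Among the 95% intervals drawn, those of Rdh11 and Nrip1 lie below 0 and all the others reach across it.

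In the wider enzyme family no genotype difference was called. All 14 other aldehyde dehydrogenases were tested and gave 7 higher and 7 lower estimates, a median log2 fold change of 0.00 and 0 calls. The estimates ran from -0.33 to 0.54. Aldh1l2, a mitochondrial folate enzyme, had the lowest estimate, with 146 ± 24.7 CPM in KO against 183 ± 59.4 CPM in WT (SD, n = 4 each; log2 fold change -0.33, SE 0.18, edgeR adjusted p = 0.545). Aldh18a1, of proline synthesis, had a log2 fold change of -0.14 (SE 0.14). Aldh5a1, of GABA breakdown, and Aldh6a1, of valine breakdown, had -0.02 (SE 0.09) and -0.04 (SE 0.07).

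Levels were compared between genes as CPM per kilobase of exon, averaged over the 8 libraries. Rdh10 was the highest member at 3.57 ± 0.414 (SD, n = 8), followed by Aldh1a3 at 2.46 ± 0.868, and Rdh10 was above Aldh1a3 in 7 of 8 libraries. Aldh1a3 was 2.51 times Cyp26b1 and above it in 8 of 8. Cyp26b1 and Rara (0.981 and 0.971) could not be ordered, each being higher in 4 libraries, and the same held for Rarb and Crabp2 (0.594 and 0.565), where Rarb was higher in 5 of 8. Crabp1 and Rxrg (0.256 and 0.243) overlapped too. Aldh1a1 followed at 0.177, and only Aldh1a2, at 0.00667, lay outside the range of its neighbour.

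By their means the receptors had the order Rxrb, Rxra, Rarg, Rara, Rarb and Rxrg. Rarg was above Rara in 7 of 8 libraries and Rara above Rarb in 6 of 8, with overlapping ranges. On the same scale Rxrb stood at 13.0, which was 7.47 times Rxra, with no overlap. Rxra (1.75) was above Rarg (1.35) in 8 of 8 libraries although their ranges overlapped, and Rarb was above Rxrg in 8 of 8. The enzymes and carriers Rdh11 (51.0), Adh5 (36.4), Fabp5 (31.2) and Rlbp1 (28.4) exceeded all 10 members.

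**Figure D5:**
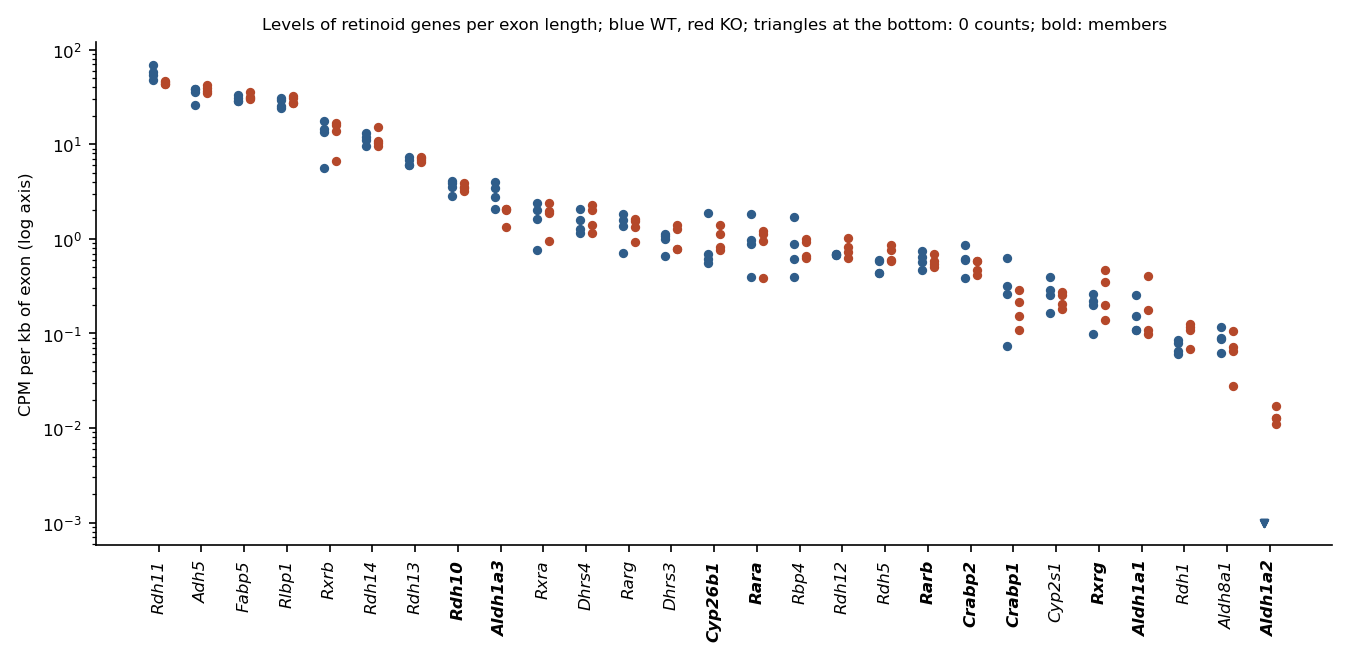
CPM per kilobase of exon (vertical axis, logarithmic) of retinoid genes in each WT (blue) and KO (red) library, ordered by mean; members are in bold, and the triangle stands for libraries with 0 counts. Rdh10 and Aldh1a3 lead the members, and Aldh1a2 lies far below the rest.

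Over the 8 libraries the log2 CPM of Aldh1a3 had a Pearson correlation of 0.685 with that of Rara and -0.392 with that of Rdh10, and Rdh10 had one of -0.885 with Cyp26b1. These coefficients describe 8 libraries that share the KO1 and WT1 contrast and the genotype. Among all genes tested those most like Aldh1a3 were Hs6st3 (0.969), Wdfy3 (0.957), Armcx2 (0.951), Xkr7 (0.951) and 4930481B07Rik (0.949). Zfpm1 (0.997) and N4bp3 (0.996) were nearest to Rara, Lysmd4 (0.992) and Tsfm (0.969) to Cyp26b1, and Cntnap2 (0.892) and Gfpt2 (0.883) to Rarb. Fam160b2 (0.980) was nearest to Rxrg, Tmem86a (0.975) to Crabp2, Sumf1 (0.980) to Rdh10 and Umps (0.921) to Aldh1a1.

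Markers of the cells that could make these transcripts were summed per library. The 10 markers of glutamatergic cortical neurons, led by Map2, Tubb3 and Neurod6, reached 4550 to 5312 CPM in KO against 4661 to 5150 CPM in WT, and all were above 3 counts in some library. The 10 markers of astrocytes and radial glia, led by Fabp7, Slc1a3 and Slc1a2, summed to 1626 to 2295 CPM in KO against 1503 to 2327 CPM in WT. For the striatal projection neurons, which are born where Aldh1a3 is made in the embryo, the 12 markers summed to 276 to 312 CPM in KO against 260 to 309 CPM in WT, most of it Meis2, Foxp1 and Rgs9, of which cortical neurons also make Foxp1, with Isl1 at or under 3 counts. Of these 12 markers 10 were tested, and 5 estimates were lower in KO. An edgeR p under 0.05 before adjustment was found for 3, in either direction, against 10.6% of all genes. Rgs9 was among them (log2 fold change -0.25, SE 0.08, edgeR unadjusted p = 0.0109). Foxp1 and Meis2 had log2 fold changes of 0.10 (SE 0.10) and 0.05 (SE 0.18). The part of striatal cells in the Aldh1a3 difference was not tested.

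Other sources were scarce or uneven. GABAergic interneuron markers, led by Gad1, Dlx1 and Gad2, summed to 232 to 365 CPM in KO against 204 to 335 CPM in WT, with Nkx2-1 at or under 3 counts. The 10 markers of meninges and fibroblasts, the cells known for Aldh1a2, summed to 311 to 446 CPM in KO against 255 to 448 CPM in WT. Pdgfra made up nearly the whole of it, at 287 to 432 CPM in KO against 248 to 428 CPM in WT, and oligodendrocyte precursors express it as well. Dcn was 7.85 to 19.3 CPM in KO against 4.76 to 30.1 CPM in WT. The other 8, among them Ptgds and the fibroblast collagens Col1a1, Col1a2 and Col3a1, summed to at most 6.50 CPM in KO and 6.95 CPM in WT, with Igf2 at or under 3 counts. Choroid plexus markers, led by Sostdc1, Aqp1 and Folr1, summed to at most 5.55 CPM in KO and 7.76 CPM in WT, with Kcnj13, Otx2 and Clic6 at or under 3 counts. Endothelial and mural markers, led by Pdgfrb, Rgs5 and Pecam1, summed to 8.08 to 20.1 CPM in KO against 5.20 to 17.9 CPM in WT, with Cldn5 at or under 3 counts. Microglial markers, led by Cx3cr1, C1qb and Tyrobp, summed to 3.29 to 42.7 CPM in KO against 4.05 to 18.6 CPM in WT, KO3 being the highest. In these 8 lists 0 markers passed the adjusted threshold, and their part in the values above was not tested.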

How the data were processed

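Raw read counts per Ensembl gene were deposited by the authors for 4 KO and 4 WT libraries. Per their methods and the submitters' processing notes, reads were trimmed with Cutadapt 1.10, ribosomal reads were discarded, the rest were aligned to mm10 with STAR 2.5.3a, and reads with a single best place were counted by HTSeq 0.6.1p1 in union mode, which leaves out reads shared by several genes. Read layout is given differently in the labels and the methods, and use of strand in counting is not stated. Replicates were not pooled, and all columns were matched to samples by their labels. No 2 libraries agreed within sampling noise (lowest chi-square per degree of freedom 20.4).

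Counts were fitted in R 4.3.3 with edgeR 4.0.16 (filterByExpr by genotype, TMM, robust quasi-likelihood F test) with genotype and 1 svaseq surrogate variable (sva 3.50.0), adjusted by Benjamini-Hochberg over 16272 genes at 0.05. The script was tested on simulated data. Alternatives used DESeq2 1.42.0, limma-voom 3.58.1, other scalings, filters and terms, and subsets of libraries. CPM is a count divided by the total of its library. Exon lengths came from GENCODE vM1 on another build and served only for levels per kilobase; gene positions are RefSeq GRCm38. The protocol names no molecular identifiers, so the Wilson interval and the floors describe counting error alone. The intervals of log2 fold changes and folds come from the edgeR fit and include the spread between libraries.

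The members and gene lists were chosen with earlier results of these data known. Named genes were the members, Nuak1, up to 4 of the most abundant genes per pathway list or those past the threshold, up to 3 of the most abundant per marker list, and the genes most correlated with each tested member. Dhrs3, Stra6, Tgm2, the collagens and genes named as being at or under 3 counts were added after their values were seen. Some listed genes are not reported here by name and stay only in the counts over lists.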

Additional observations from a re-analysis of the deposited data

Results flagged for a closer look

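The 4 libraries of each genotype were examined for a library far from the other 3, for the members, Nuak1 and the most abundant genes of each pathway list as named by rule. Marker genes, the remaining listed genes, genes not reported by name and groups at or under 3 counts were left out. A library was singled out where its gap to the nearest one, as a share of the group's range, was above Dixon's 95% critical value for 4 samples. Of 72 gene and genotype groups examined 2 met this, where chance gives about 3.6.

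For Aldh1a3 in KO it was KO1, at 6.24 CPM beside 9.22 to 9.59 CPM in the others, a gap of 0.890 of the range. Without KO1 the log2 fold change of Aldh1a3 was -0.73. For Cyp26b1 in WT it was WT3, at 8.66 CPM beside 2.53 to 3.17 CPM, a gap of 0.895 of the range, and without WT3 the log2 fold change was 0.65 in place of 0.22.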

How the results depend on the processing

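The log2 fold change of Aldh1a3 lay between -0.84 and -0.61 over 23 alternatives, always within the spread between replicates of its reported value, and between -0.78 and -0.67 when each library was left out in turn. No alternative called any of the other members it could test, and DESeq2 gave no adjusted p for Aldh1a1, Crabp2, Rarb and Rxrg. Of the listed pathway genes DESeq2 called 1, Rdh11, and no other alternative called any. The number of genes called, 8 as reported, moved widely. It was 4 without a surrogate variable, with 2 of them, or with a lane term, 1 with a strain label term or without KO3 and WT4 (the libraries with Y-linked transcripts, 299 and 328 CPM), 3 without KO1 and WT1, 45 without a filter, 185 by DESeq2, 99 in lane B alone and 0 in lane A alone, where edgeR gave 96 genes an unadjusted p under 0.05. The surrogate variable was left out of the fits with a replicate, lane or strain label term. It was also left out of the fits of 1 lane and of those without a pair of libraries. Leaving out 1 library, with the surrogate variable kept, gave 3 to 91, with 91 for WT3 and 11 for KO4. The replicate numbers did not pair the libraries, since the correlations of same-numbered deviations were 0.800, 0.0122, 0.249 and 0.00225 and 2 libraries correlated best with their own number; a replicate block gave 3 calls.

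Estimates near 0 changed sign. With 2 surrogate variables Rara was 0.043. With the strain label term Aldh1a1 was -0.68, Rara 0.27 and Rarb 0.14. In lane B alone Aldh1a1 was -0.31, Rara 0.14 and Rarb 0.17, and in lane A alone Rdh10 was 0.066 and Cyp26b1 -0.63. Without KO1 and WT1 Aldh1a1 was -0.38 and Rarb 0.064, and without KO3 and WT4 Rdh10 was 0.0054 and Cyp26b1 -0.10. Leaving out 1 library gave ranges of -0.47 to 0.47 for Aldh1a1, -0.15 to 0.0052 for Rdh10, -0.14 to 0.086 for Rara and -0.19 to 0.11 for Rarb. Over the same fits Crabp2 ranged from -0.40 to -0.11 and Rxrg from 0.34 to 0.70, without a change of sign. The cause of all these changes was not tested. Aldh1a1, Crabp2 and Rxrg could not be fitted under a filter of 1 CPM, nor Aldh1a1 without KO3 and WT4. Depth limits Aldh1a1, Aldh1a2, Crabp1, Crabp2 and Rxrg, which rest on 0 to 55 counts per library.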
